A study of Caenorhabditis elegans with 12 samples.

Results

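The age by genotype interaction asks, gene by gene, whether the change of expression between first-day and sixth-day adult *Caenorhabditis elegans* was the same in *fog-2(lf)* and wild-type animals. It was computed as the age change in *fog-2(lf)* (sixth day minus first day) minus the age change in wild type, on a log2 scale, so that a positive value means that expression moved more upward, or less downward, with age in *fog-2(lf)*. All 12 libraries of the series entered it, since the term needs all 4 groups: sixth-day *fog-2(lf)*, first-day *fog-2(lf)*, sixth-day wild type and first-day wild type, with 3 replicates each. The *fog-2(lf)* animals were XX worms of strain JK574, which carries the loss-of-function allele q71 of *fog-2* in the N2 background. The wild-type animals were the laboratory strain N2, and all worms fed on OP50 bacteria. Poly(A) RNA of whole, age-synchronized worms was sequenced, each replicate being a separate biological sample of many pooled worms.

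*fog-2* encodes an F-box protein needed for spermatogenesis in the XX germline, so XX animals that lack it make oocytes but no sperm of their own and are females. Wild-type XX animals are hermaphrodites that make sperm first and oocytes afterwards, and they stop laying fertilized eggs when their own sperm run out. First-day adults were taken before embryos were visible, and sixth-day adults after wild-type worms had laid their eggs. Age and the use of self-sperm therefore cannot be told apart in wild type, while *fog-2(lf)* animals had no sperm at either age, and a single allele in a single strain stands for the genotype. In the adult worm the intestine makes yolk proteins that oocytes take up, and it carries most of the digestive proteases, antimicrobial effectors and fat metabolism, while oogenesis draws on ribosomes and mitochondria made in the germline. Muscle, neurons and cuticle hold much of the remaining somatic RNA. In whole animals, fewer cells of a type and less RNA per cell cannot be told apart.

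Libraries held between 21162593 and 38775999 estimated counts, with a median of 31695439, and 14560 of 22035 genes passed the filter on low counts. Levels below are CPM, estimated counts scaled to a common library size after trimmed-mean normalization, and a change was called at an adjusted p under 0.1 (edgeR's quasi-likelihood test, Benjamini-Hochberg adjustment over all genes tested). The labels were checked on *fog-2* itself (chromosome V, 20199254 to 20200648, WBcel235), which had 3.57, 3.39 and 3.20 CPM in sixth-day *fog-2(lf)*, 4.86, 3.92 and 4.18 in first-day *fog-2(lf)*, 53.5, 54.7 and 58.5 in sixth-day wild type and 52.8, 44.5 and 45.98 in first-day wild type. The *fog-2(lf)* libraries were all far below the wild-type ones. Markers of the male soma summed to 2.85 to 3.21 CPM in sixth-day *fog-2(lf)*, 1.14 to 1.199 in first-day *fog-2(lf)*, 2.84 to 3.43 CPM in sixth-day wild type and 0.29 to 0.86 CPM in first-day wild type, over 8 of 8 markers. Most of that sum was *try-5* in the sixth-day libraries, but not in every first-day library. At the first day *try-5* had 0.515, 0.720 and 0.490 CPM in *fog-2(lf)* and 0.180, 0.135 and 0.633 in wild type. The defining male neuron gene *lov-1* was at or below 0.37 CPM in every library.

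First-day wild type was the least even group. Its replicate 2 carried sperm RNA, with the 31 major sperm protein genes summing to 239 CPM, against 2.09 and 5.99 CPM in the other first-day wild-type libraries, while first-day *fog-2(lf)* replicate 2 had 18.6 CPM and the other libraries 0.87 to 4.91 CPM. Its replicate 1 was low in long transcripts: genes with an isoform over 8000 nt had a median deviation of -0.93 from their mean over all libraries on the log2 scale there, against -0.15 to 0.41 in the other 11 libraries. Where a list's count or median below moved by more than 1.5 times without either library, the value without it is also given, except for medians that stay within 0.1 of 0. The plot of sperm RNA and long transcripts by library shows both departures.

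**Figure D1:**
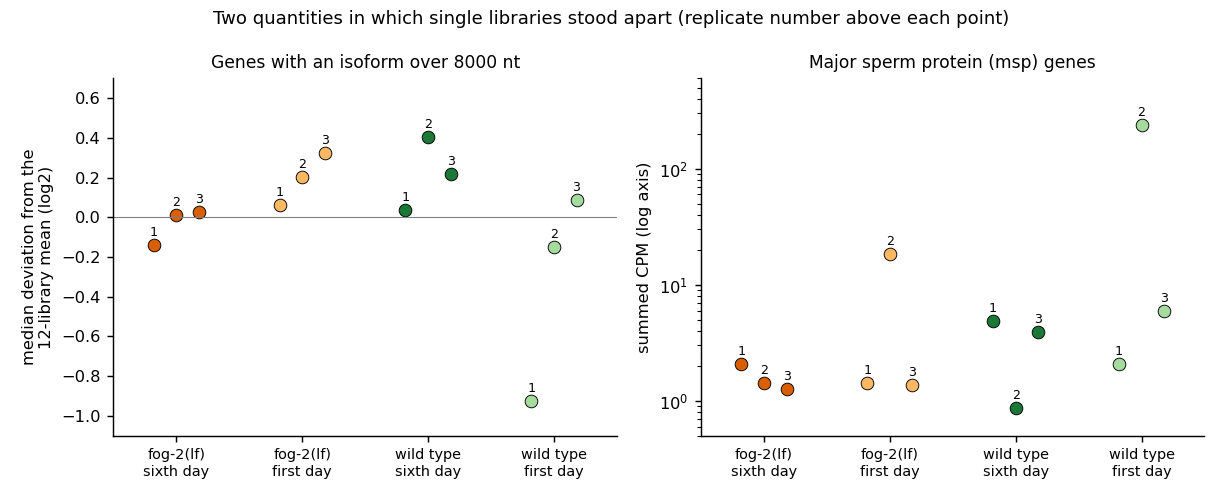
Median log2 deviation from the 12-library mean of genes with an isoform over 8000 nt (left) and summed CPM of the 31 major sperm protein genes (right, log axis) in each library, grouped as sixth-day *fog-2(lf)*, first-day *fog-2(lf)*, sixth-day wild type and first-day wild type; each point is 1 library with its replicate number. First-day wild type replicate 1 stands at -0.93 for long transcripts, and first-day wild type replicate 2 at 239 CPM of sperm RNA.

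The interaction was called for 2233 of 14560 genes (15.3%), of which 1074 were positive (7.38%) and 1159 negative (7.96%). At an unadjusted p under 0.05 there were 3852 genes. The directions differed in size and level. Positive genes had a median interaction of 0.74 and a median of 78.2 CPM in their highest group, and negative genes a median size of 1.82 and a median of 4.28 CPM. Thus 444 positive and 915 negative genes reached a size of 1 or more on the log2 scale. The split between directions depended on the scaling, with 1074 positive and 1159 negative genes under trimmed-mean scaling, 412 and 2781 under library totals, and 378 and 3413 by limma on log2(TPM + 0.5). The median over all genes was 0.02, -0.26 and -0.30 under the same 3 scalings. The 10 most abundant isoforms held 9.45% to 17.4% of all counts in first-day wild type and 3.72% to 8.62% in the other groups. List medians below are set against the all-gene median of 0.02, and a change of their sign under library totals or TPM is stated with them. Other lists are given by their counts alone. Of these, the medians of germline stem cell, DNA replication and cell cycle, early zygotic and lipid-binding genes turned negative under both scalings. So did those of transthyretin-related, redox, transfer RNA synthetase and proteasome genes, and that of glutathione S-transferases under TPM only. Leaving out 1 library moved the count of calls more than 1.5 times in 6 cases: to 1027 and 1354 without sixth-day *fog-2(lf)* replicates 1 and 2, 1437 and 1078 without first-day *fog-2(lf)* replicates 1 and 3, and 1044 and 1417 without sixth-day wild type replicates 2 and 3. Without first-day wild type replicate 2 it was 3321, with 1779 positive.

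The age change itself was called for 5716 genes in *fog-2(lf)* (39.3%), with 18.1% higher and 21.2% lower at the sixth day, and for 7123 genes in wild type (48.9%), with 23.5% higher and 25.4% lower. These comparisons share no library with each other, but each shares its libraries with the interaction, so the age changes are given beside it as values only. They also depend on the scaling. The median age change over all genes was -0.03 in *fog-2(lf)* and -0.003 in wild type under trimmed-mean scaling. Under library totals these medians were 0.10 and 0.42. Rises and falls with age below are those under trimmed-mean scaling. Across 54 lists of genes grouped by tissue and function, and leaving aside lists of 5 or fewer tested members, the share of positive calls was highest for cytosolic ribosomal proteins, yolk proteins and intestinal cathepsins, and the share of negative calls for muscle filaments, sensory cilia and pharynx.

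**Figure D2:**
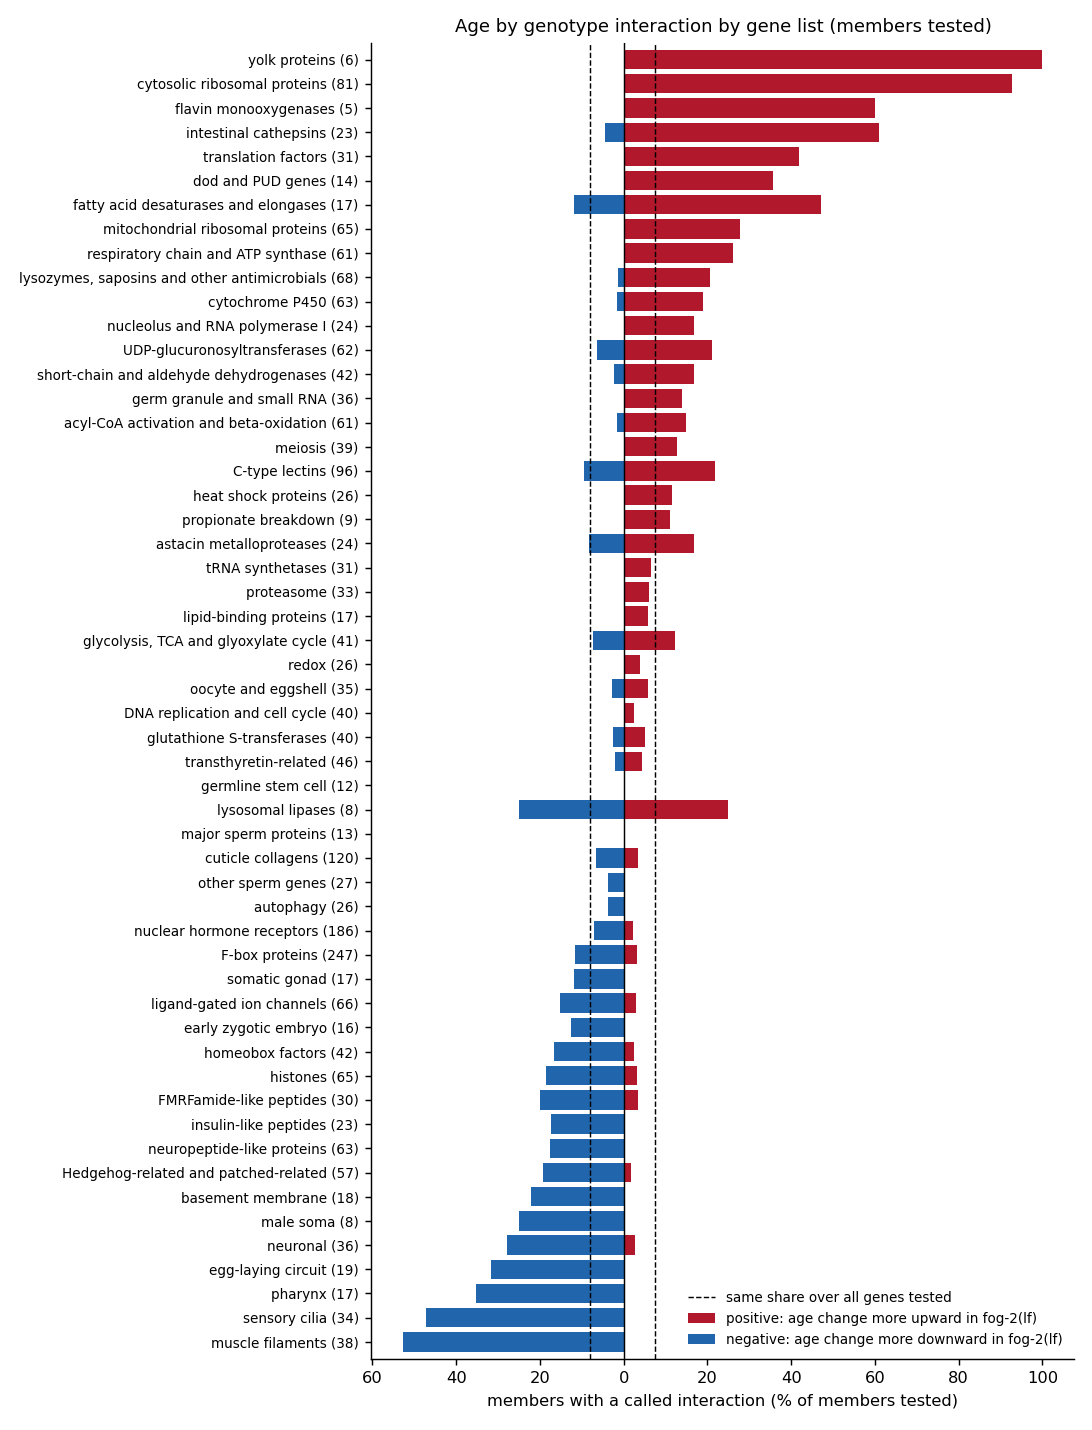
Percent of the tested members of each gene list with a positive (right) or negative (left) interaction, for lists with at least 5 tested members; the dashed lines mark the shares over all genes tested, 7.38% positive and 7.96% negative. Cytosolic ribosomal proteins reach 92.6% positive and muscle filaments 52.6% negative.

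**Figure D3:**
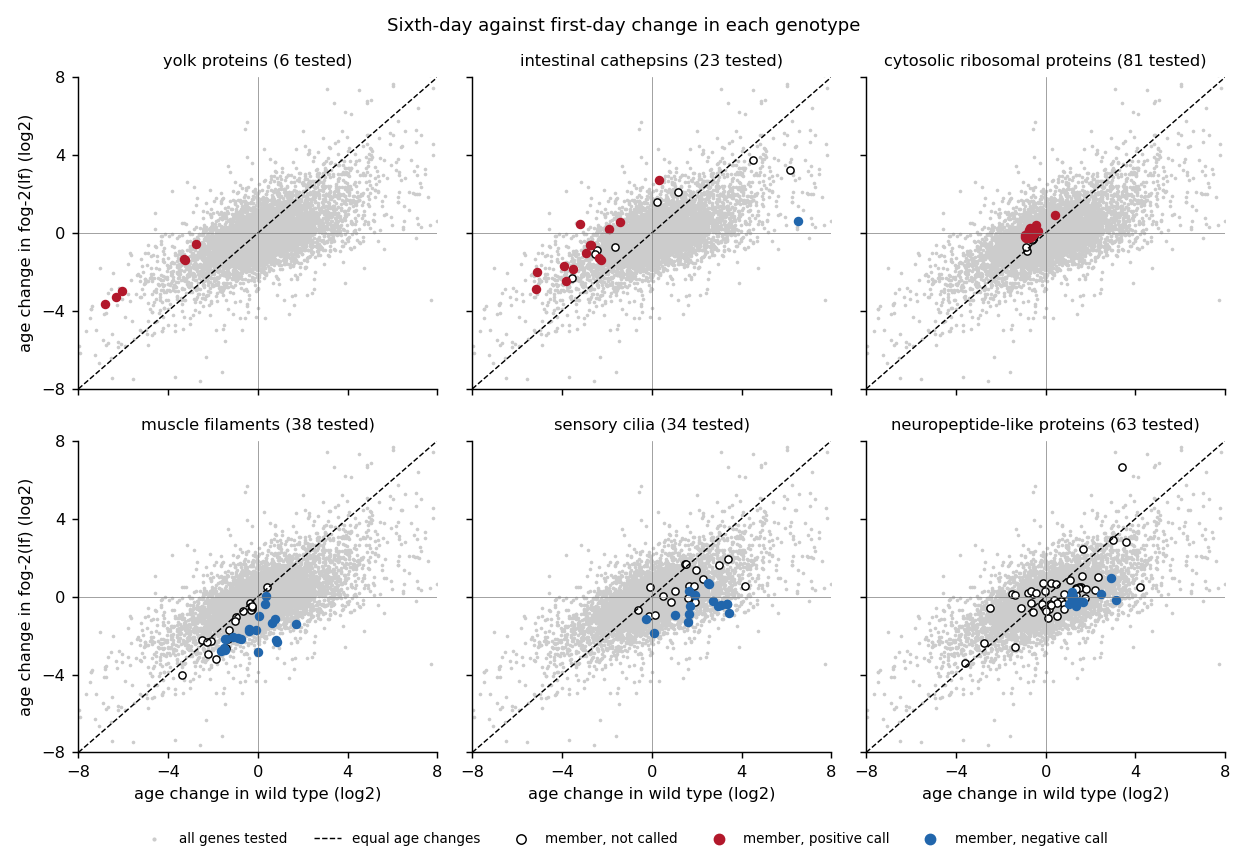
Age change in *fog-2(lf)* (vertical axis) against age change in wild type (horizontal axis), both log2 of sixth day over first day, with all genes tested in grey and the members of 6 lists drawn over them, 1 list a panel; genes beyond 8 on either axis are not drawn. Members above the dashed line of equal change moved more upward in *fog-2(lf)*, as all 6 yolk genes did, and those below it more upward in wild type, as 35 of the 38 muscle filament genes did.

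Yolk protein RNA fell with age in wild type, and fell less in *fog-2(lf)*. All 6 vitellogenin genes, which encode the lipoproteins that the intestine exports to oocytes, had a positive interaction (6 of 6, median 2.60). The median age change was -2.18 in *fog-2(lf)* and -4.69 in wild type. All 6 fell in wild type, whereas the age change of *vit-5* did not pass the test in *fog-2(lf)*, at -0.56 (adjusted p = 0.317). *vit-2* had 5714, 4846 and 4314 CPM in sixth-day *fog-2(lf)*, 11070.0, 11367 and 15320.0 in first-day *fog-2(lf)*, 3669, 4614 and 2809 in sixth-day wild type and 35269, 20687 and 53965 in first-day wild type. The 4 groups did not overlap except at sixth day, where the lowest *fog-2(lf)* library lay below the highest wild-type library. Its interaction was 1.965 ± 0.43 (log2, SE; adjusted p = 0.0270), with age changes of -1.34 in *fog-2(lf)* (adjusted p = 0.00683) and -3.31 in wild type (adjusted p = 3.6e-05). *vit-1* (chromosome X, 7727889 to 7733168) had 376, 259 and 154 CPM in sixth-day *fog-2(lf)*, 3259, 2210.0 and 4230.4 in first-day *fog-2(lf)*, 27.6, 114 and 83.7 in sixth-day wild type and 9492, 8384 and 7156 in first-day wild type, without overlap between the groups. First-day *fog-2(lf)* was lower than first-day wild type and sixth-day *fog-2(lf)* higher than sixth-day wild type in every library, and the interaction was 3.17 ± 0.64 (log2, SE; adjusted p = 0.0226). The others ranged from 1.88 for *vit-6* to 3.10 for *vit-4*. *vit-2*, *vit-5* and *vit-6* were named after their values were seen. Leaving out 1 library changed the count most for sixth-day *fog-2(lf)* replicate 1, without which 3 of the 6 were called.

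The digestive proteases of the intestinal lumen and lysosome moved the same way. Of 23 cathepsin genes tested (of 27 in the files), 14 were positive and 1, *asp-9*, negative, with a median of 1.56. Their median age change was -0.70 in *fog-2(lf)* and -2.45 in wild type. *cpr-9*, a cathepsin B-like cysteine protease, had 127, 86.4 and 44 CPM in sixth-day *fog-2(lf)*, 349.9, 301 and 375 in first-day *fog-2(lf)*, 24.5, 53.3 and 64.4 in sixth-day wild type and 1804, 882 and 2288 in first-day wild type. All first-day wild-type libraries lay above all first-day *fog-2(lf)* libraries, whereas the sixth-day ranges overlapped, and the interaction was 3.13 ± 0.62 (log2, SE; adjusted p = 0.0210). *cpr-1*, another cathepsin B gene expressed in the gut, had 841, 568 and 234.6 CPM in sixth-day *fog-2(lf)*, 372, 314 and 500.3 in first-day *fog-2(lf)*, 85.6, 119.3 and 47.4 in sixth-day wild type and 358, 196 and 1778 in first-day wild type. Sixth-day wild type was the lowest group, with no library of another group inside its range, and first-day wild type spread widely. The interaction was 3.68 ± 1.01 (log2, SE; adjusted p = 0.0501), and the call was lost without sixth-day *fog-2(lf)* replicate 1, first-day *fog-2(lf)* replicate 1 or sixth-day wild type replicate 3. *asp-17*, an aspartic protease, differed in form: it had 35.6, 30.7 and 16.9 CPM in sixth-day *fog-2(lf)*, 4.73, 3.46 and 4.34 in first-day *fog-2(lf)*, 7.45, 4.22 and 6.02 in sixth-day wild type and 3.38, 4.89 and 5.93 in first-day wild type. Only sixth-day *fog-2(lf)* stood above the rest, and the interaction was 2.40 ± 0.44 (log2, SE; adjusted p = 0.0175). *cpl-1*, the cathepsin L that processes yolk in embryos, and *asp-1*, the main intestinal aspartic protease, were chosen after their values were seen and had interactions of 1.08 (adjusted p = 0.0282) and 1.39 (adjusted p = 0.0209).

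Markers of the intestine summed to 4345 to 5756 CPM in sixth-day *fog-2(lf)*, 11119 to 15376 in first-day *fog-2(lf)*, 2839 to 4637 CPM in sixth-day wild type and 20728 to 54064 CPM in first-day wild type, over 3 of 3 markers, none at 0. Nearly all of that sum was *vit-2*, so it moves with yolk. The other markers were far lower: *elt-2*, the intestinal GATA factor, was between 2.56 and 9.495 CPM in every library, and *ges-1*, a gut esterase, had 38.2, 34.2 and 24.0 CPM in sixth-day *fog-2(lf)*, 40.5, 38.3 and 48.9 in first-day *fog-2(lf)*, 22.8, 18.6 and 22.3 in sixth-day wild type and 56.2, 37.2 and 88.97 CPM in first-day wild type. Their part in the intestinal results was not tested.

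The *pud* genes, small intestinal and hypodermal proteins first found as upregulated when insulin signalling is low, and the related *dod* genes carried some of the steepest differences. Of 14 tested, 5 were positive and 0 negative, with a median of 2.104, and 8 were positive without first-day wild type replicate 2. *pud-1.1* (chromosome V, 2330429 to 2330930) had 4.92, 2.26 and 1.86 CPM in sixth-day *fog-2(lf)*, 33.8, 14.7 and 27.5 in first-day *fog-2(lf)*, 5.41, 4.57 and 2.87 in sixth-day wild type and 617, 229 and 484 in first-day wild type. First-day wild type stood above first-day *fog-2(lf)* in every library, with a wide gap, while the sixth-day groups overlapped at a few CPM. Its interaction was 3.59 ± 0.65 (log2, SE; adjusted p = 0.0175). *pud-1.2* and *pud-2.2* were similar, at 3.10 and 3.57, although *pud-2.2* shares its counts with an identical copy and is uncertain.

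Among families of innate defence and detoxification, C-type lectins, antimicrobials, cytochrome P450 enzymes and UDP-glucuronosyltransferases were positive more often than the background, whereas glutathione S-transferases, with 2 positive and 1 negative of 40, were not. Without first-day wild type replicate 2 the glutathione S-transferases had 5 positive and 2 negative calls. Among C-type lectins, sugar-binding proteins many of which respond to bacteria, 21 of 96 tested (of 240 in the files) were positive and 9 negative, with a median of 0.30. Among lysozymes, saposin-like proteins and other antimicrobials, 14 of 68 were positive and 1 negative, with a median of 0.31. Without first-day wild type replicate 2 these antimicrobial counts were 19 and 5. Both medians turned negative under library totals and TPM. The lectin median was 0.47 without first-day wild type replicate 1, and the antimicrobial median was 0.86 without first-day wild type replicate 2. *ilys-5*, an invertebrate-type lysozyme, had 217, 89.7 and 34.3 CPM in sixth-day *fog-2(lf)*, 388, 190.2 and 470.4 in first-day *fog-2(lf)*, 16.7, 40.1 and 6.30 in sixth-day wild type and 710.0, 321 and 891 in first-day wild type. The sixth-day groups overlapped, and the call (3.31 ± 1.02 (log2, SE; adjusted p = 0.0684)) was lost without sixth-day *fog-2(lf)* replicate 1 or 2, first-day *fog-2(lf)* replicate 1, 2 or 3, sixth-day wild type replicate 1 or 3 or first-day wild type replicate 1 or 3. *spp-12*, a saposin-like pore-forming protein, moved the other way with age and had 99.0, 26.8 and 27.6 CPM in sixth-day *fog-2(lf)*, 0.0966, 0.187 and 0.0980 in first-day *fog-2(lf)*, 8.99, 6.604 and 17.98 in sixth-day wild type and 0.648, 0.0674 and 0.288 in first-day wild type. It rose in both genotypes, with a larger rise in *fog-2(lf)*, and the interaction was 3.53 (adjusted p = 0.0923). The lectin calls became 8 and 11 without sixth-day *fog-2(lf)* replicates 1 and 2, 12 and 7 without first-day *fog-2(lf)* replicates 1 and 3, 11 without sixth-day wild type replicate 2 and 11 and 32 without first-day wild type replicates 1 and 2 for positive members. For negative members the count became 3, 3 and 5 without sixth-day *fog-2(lf)* replicates 1, 2 and 3, 2, 4 and 3 without first-day *fog-2(lf)* replicates 1, 2 and 3, 4, 4 and 4 without sixth-day wild type replicates 1, 2 and 3 and 2 without first-day wild type replicate 1. The antimicrobial calls became 2 and 3 without sixth-day *fog-2(lf)* replicates 1 and 2, 7, 5 and 1 without first-day *fog-2(lf)* replicates 1, 2 and 3, 8, 3 and 3 without sixth-day wild type replicates 1, 2 and 3 and 4 and 5 without first-day wild type replicates 1 and 3.

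Cytochrome P450 enzymes, which oxidize fats, steroids and foreign compounds, had 12 positive and 1 negative calls among 63 tested (median 0.60, or 0.32 under library totals and 0.10 by limma on TPM). The positive count was 7 without sixth-day *fog-2(lf)* replicate 1 and 19 without first-day wild type replicate 2. *cyp-35A5* had 2.82, 0.622 and 0.941 CPM in sixth-day *fog-2(lf)*, 6.18, 5.30 and 8.03 in first-day *fog-2(lf)*, 0.494, 0.773 and 0.489 in sixth-day wild type and 26.3, 31.1 and 15.6 in first-day wild type. All first-day wild-type values lay above all first-day *fog-2(lf)* values, whereas the sixth-day groups overlapped, and the interaction was 3.19 ± 0.68 (log2, SE; adjusted p = 0.0256). *cyp-14A3*, the largest positive value of all genes above 10 CPM, had 22.5, 11.19 and 3.25 CPM in sixth-day *fog-2(lf)*, 0.0966, 0.533 and 0.0327 in first-day *fog-2(lf)*, 0.216, 0.419 and 0.336 in sixth-day wild type and 0.0719, 0.0674 and 1.44 in first-day wild type. It was at or below 1.44 CPM in every library outside sixth-day *fog-2(lf)*, with an interaction of 6.19 ± 1.63 (log2, SE; adjusted p = 0.0446), lost without sixth-day *fog-2(lf)* replicate 1 or first-day wild type replicate 3. UDP-glucuronosyltransferases, which attach sugars to lipophilic compounds for export, had 13 positive and 4 negative calls among 62 (median 0.51, or 0.23 under library totals and 0.12 by limma on TPM). *ugt-25* had 78.0, 57.3 and 48.3 CPM in sixth-day *fog-2(lf)*, 2.96, 2.21 and 3.27 in first-day *fog-2(lf)*, 16.04, 26.4 and 33.6 in sixth-day wild type and 5.79, 7.88 and 4.14 in first-day wild type. It rose with age in both genotypes, sixth-day *fog-2(lf)* stood above sixth-day wild type in every library, and the interaction was 2.36 ± 0.43 (log2, SE; adjusted p = 0.0175). The glucuronosyltransferase count became 6 and 7 without sixth-day *fog-2(lf)* replicates 1 and 3, 7 and 5 without first-day *fog-2(lf)* replicates 1 and 3 and 6, 7 and 6 without sixth-day wild type replicates 1, 2 and 3 for positive members. For negative members the count became 1 and 2 without sixth-day *fog-2(lf)* replicates 1 and 2, 1 and 2 without first-day *fog-2(lf)* replicates 1 and 3 and 1 without sixth-day wild type replicate 2. Flavin monooxygenases, of which *fmo-2* is known for its link to long life in the worm, had 3 of 5 positive, but the count was 0 and 0 without sixth-day *fog-2(lf)* replicates 1 and 3, 1 and 0 without first-day *fog-2(lf)* replicates 1 and 3, 0 and 0 without sixth-day wild type replicates 2 and 3 and 0 and 1 without first-day wild type replicates 1 and 3.

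Among enzymes that make unsaturated and long-chain fatty acids, some changed in opposite directions in the 2 genotypes. Of 17 desaturase and elongase genes, 8 were positive and 2 negative, with a median of 0.76 (0.47 under library totals and 0.45 by limma on TPM), and the median age change was 0.06 in *fog-2(lf)* and -0.81 in wild type. *fat-2*, the delta-12 desaturase that makes linoleic acid (chromosome IV, 13323873 to 13326395), had 1099, 1148 and 973 CPM in sixth-day *fog-2(lf)*, 531, 542 and 502 in first-day *fog-2(lf)*, 728, 683 and 554 in sixth-day wild type and 1422, 583 and 1844 in first-day wild type. Sixth-day *fog-2(lf)* libraries were all above first-day *fog-2(lf)*, whereas first-day wild type was uneven, with its replicate 2 at the level of sixth-day wild type. The interaction was 2.002 ± 0.43 (log2, SE; adjusted p = 0.0255), and the age change was 1.03 in *fog-2(lf)* (adjusted p = 0.0234) and -0.97 in wild type (adjusted p = 0.0240). *fat-3*, the delta-6 desaturase that acts next, had 241, 207 and 208 CPM in sixth-day *fog-2(lf)*, 91.3, 125 and 100.9 in first-day *fog-2(lf)*, 127, 162 and 108 in sixth-day wild type and 249, 147 and 609 in first-day wild type. Here too *fog-2(lf)* rose and wild type fell, by 1.05 and -1.34 on the log2 scale, and the interaction was 2.38 (adjusted p = 0.0314). *elo-2*, a palmitic acid elongase, fell in both, and the interaction was 2.42 (adjusted p = 0.0216). The negative members were *fat-7*, a delta-9 desaturase, at -3.01 (adjusted p = 0.0629), and *fasn-1*, the fatty acid synthase, at -1.21 (adjusted p = 0.0637). *fat-7* lost its call without sixth-day *fog-2(lf)* replicate 1, 2 or 3, first-day *fog-2(lf)* replicate 1 or 3, sixth-day wild type replicate 1 or first-day wild type replicate 1, and *fasn-1* without sixth-day *fog-2(lf)* replicate 1 or 3, first-day *fog-2(lf)* replicate 3 or sixth-day wild type replicate 2.

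Acyl-CoA activation and beta-oxidation genes had 9 positive and 1 negative calls among 61 (median 0.27, below 0 under library totals and TPM). The positive count was 5 without sixth-day *fog-2(lf)* replicate 2, 5 without first-day *fog-2(lf)* replicate 3 and 5 without sixth-day wild type replicate 2. *acs-3*, an acyl-CoA synthetase, was positive at 2.36 (adjusted p = 0.0311) and *acs-16*, of the same family, negative at -1.76 (adjusted p = 0.0392). Of 8 lysosomal lipases, 2 were positive and 2 negative. *lipl-5*, a lysosomal acid lipase, had 135, 285 and 97.6 CPM in sixth-day *fog-2(lf)*, 403, 347 and 292 in first-day *fog-2(lf)*, 102.8, 73.6 and 39.8 in sixth-day wild type and 1117, 424 and 1251 in first-day wild type. All first-day wild-type values were above all first-day *fog-2(lf)* values, while the sixth-day groups overlapped, and the interaction was 2.68 ± 0.66 (log2, SE; adjusted p = 0.0375). *alh-8*, a methylmalonate-semialdehyde dehydrogenase of the propionate pathway, was positive at 0.78 (adjusted p = 0.0257) and was called without each library in turn. It was the one positive member among 9 genes of propionate breakdown.

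Short-chain and aldehyde dehydrogenases, a broad family of oxidoreductases, had 7 positive and 1 negative calls among 42 (median 0.21, below 0 under library totals and TPM, and 0.34 without first-day wild type replicate 2). The positive count became 3 without sixth-day *fog-2(lf)* replicate 2, 3 without first-day *fog-2(lf)* replicate 3, 2 and 4 without sixth-day wild type replicates 2 and 3 and 13 without first-day wild type replicate 2. Lipid-binding proteins of the *lbp* and *far* families had 1 positive and 0 negative of 17, and transthyretin-related proteins 2 positive and 1 negative of 46. Without first-day wild type replicate 2 the lipid-binding counts were 4 and 1, and the transthyretin-related counts 15 and 3.

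Astacins are secreted metalloproteases. Of 24 tested, 4 were positive and 2 negative, while 17 lay below 0, with a median of -0.98, or -0.49 by limma on TPM. The positive count was 1 or 2 in every fit that left out 1 library, except that without first-day wild type replicate 2. *nas-20* (chromosome V, 11470925 to 11472309), a positive member, thus went against most of its list. Its level was 68.1, 65.9 and 48.8 CPM in sixth-day *fog-2(lf)*, 28.5, 21.3 and 25.2 in first-day *fog-2(lf)*, 17.2, 16.04 and 10.9 in sixth-day wild type and 45.4, 27.9 and 48.7 in first-day wild type. Within *fog-2(lf)* all sixth-day libraries were above all first-day ones, and within wild type all sixth-day libraries were below all first-day ones. The interaction was 2.75 ± 0.33 (log2, SE; adjusted p = 0.00646), and the age change was 1.28 in *fog-2(lf)* (adjusted p = 0.00201) and -1.47 in wild type (adjusted p = 6.7e-04).

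**Figure D4:**
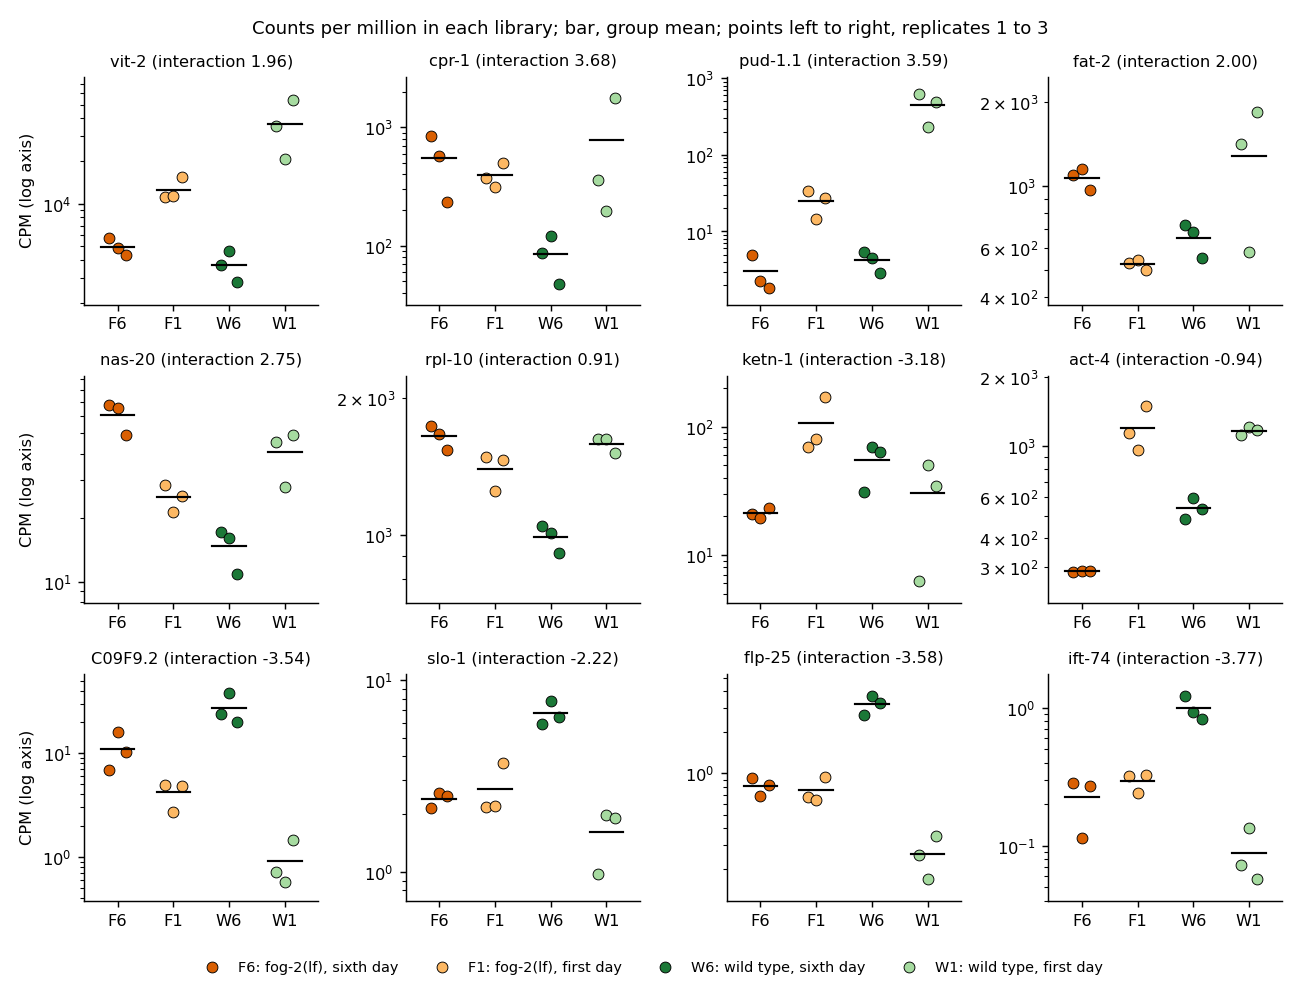
CPM (log scale) of 12 genes in every library, in the order sixth-day *fog-2(lf)* (F6), first-day *fog-2(lf)* (F1), sixth-day wild type (W6) and first-day wild type (W1); each point is 1 library. *vit-2*, *cpr-1*, *pud-1.1*, *fat-2*, *nas-20* and *rpl-10* had positive interactions, and *ketn-1*, *act-4*, *C09F9.2*, *slo-1*, *flp-25* and *ift-74* negative ones; *nas-20* was at 48.8 to 68.1 CPM in sixth-day *fog-2(lf)* and 10.9 to 17.2 CPM in sixth-day wild type.

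Under trimmed-mean scaling, ribosomal protein RNA fell with age in wild type and mostly did not in *fog-2(lf)*. Of 81 cytosolic ribosomal protein genes tested, 75 had a positive interaction (92.6%) and 0 a negative one, with a median of 0.64 and a range from -0.10 to 0.91. In wild type 80 of the 81 fell, with a median of -0.64, while in *fog-2(lf)* 5 fell and 3 rose, with a median of 0.00. The one member below 0 was *rpl-11.2*. *rpl-10*, a large-subunit protein (chromosome II, 8143881 to 8144671), had 1736, 1669.8 and 1534 CPM in sixth-day *fog-2(lf)*, 1484, 1249.6 and 1464 in first-day *fog-2(lf)*, 1047, 1011 and 915 in sixth-day wild type and 1622, 1625 and 1516 in first-day wild type. Sixth-day wild type was below every other library, and the other 3 groups lay close together. Its interaction was 0.91 ± 0.13 (log2, SE; adjusted p = 0.0107). *rps-8* and *rps-9*, of the small subunit, followed at 0.89 (adjusted p = 0.0140) and 0.86 (adjusted p = 0.0161). All 3 were called without each library in turn, and the number of members called under those omissions was between 52 and 76. Under library totals the median stayed positive at 0.36, which is 0.62 above the all-gene median, but 15 members were called.

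Other lists of the translation machinery had positive calls and no negative ones, with smaller medians, and most of their members did not pass the test. Mitochondrial ribosomal proteins had 18 positive and 0 negative calls among 65 (median 0.31), and translation factors 13 and 0 among 31 (median 0.31), with both medians at 0.02 under library totals and -0.04 and -0.05 under TPM. Under library totals 0 mitochondrial ribosomal proteins were positive and 1 negative, and under TPM 0 and 2. For translation factors these counts were 1 and 0 under library totals and 1 and 3 under TPM. *iff-1*, a germline form of initiation factor 5A, had 812, 758 and 705 CPM in sixth-day *fog-2(lf)*, 693, 636 and 716 in first-day *fog-2(lf)*, 542, 504 and 492 in sixth-day wild type and 934, 818 and 689.8 in first-day wild type. Sixth-day wild type was again below every other library, with an interaction of 0.82 ± 0.15 (log2, SE; adjusted p = 0.0179). *eif-3.H*, a subunit of initiation factor 3, rose in *fog-2(lf)* and fell in wild type, with an interaction of 0.62 (adjusted p = 0.0190). Among nucleolar and RNA polymerase I genes, 4 of 24 were positive (median 0.22, below 0 under library totals and TPM, and 0.07 without first-day wild type replicate 2). Under library totals, and also under TPM, 1 was positive and 1 negative. *nol-16*, a ribosome biogenesis factor, had 126, 103.3 and 103.9 CPM in sixth-day *fog-2(lf)*, 58.7, 61.4 and 56.8 in first-day *fog-2(lf)*, 70.8, 66.3 and 68.4 in sixth-day wild type and 75.5, 76.9 and 51.9 in first-day wild type. Only sixth-day *fog-2(lf)* stood apart, above all other libraries, and the interaction was 0.91 ± 0.19 (log2, SE; adjusted p = 0.0249). Calls became 4, 9 and 11 without sixth-day *fog-2(lf)* replicates 1, 2 and 3, 9, 8 and 6 without first-day *fog-2(lf)* replicates 1, 2 and 3, 7, 5 and 7 without sixth-day wild type replicates 1, 2 and 3 and 10 and 34 without first-day wild type replicates 1 and 3 for mitochondrial ribosomal proteins. For translation factors they became 7 and 8 without sixth-day *fog-2(lf)* replicates 1 and 2, 7 without first-day *fog-2(lf)* replicate 3 and 7 without sixth-day wild type replicate 2, and for nucleolar genes 1 without sixth-day *fog-2(lf)* replicate 1, 2 without first-day *fog-2(lf)* replicate 3 and 2 without sixth-day wild type replicate 2. Transfer RNA synthetases had 2 positive calls among 31, *sars-2* and *fars-1*, a share below the background.

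Respiratory chain and ATP synthase genes had 16 positive and 0 negative calls among 61, with a median of 0.26 that turned negative under library totals and TPM. Under library totals 0 were positive and 2 negative, and under TPM 0 and 3. Their median age change was -0.30 in *fog-2(lf)* and -0.60 in wild type. *cox-6A*, a subunit of cytochrome c oxidase, had 198, 179 and 171 CPM in sixth-day *fog-2(lf)*, 194, 173 and 189.9 in first-day *fog-2(lf)*, 131, 116 and 115 in sixth-day wild type and 186, 158 and 205 in first-day wild type. Sixth-day wild type lay below every other library, and the interaction was 0.58 ± 0.14 (log2, SE; adjusted p = 0.0378). The count became 3, 4 and 10 without sixth-day *fog-2(lf)* replicates 1, 2 and 3, 6, 5 and 4 without first-day *fog-2(lf)* replicates 1, 2 and 3 and 10, 3 and 3 without sixth-day wild type replicates 1, 2 and 3. All 12 tested genes of the mitochondrial genome had interactions above 0, with a median of 0.56 (age change -0.33 in *fog-2(lf)* and -0.99 in wild type). Of these, *ND1*, a complex I subunit, and *MTCE.25* were called, at 0.63 and 0.61; of the 12 fits that left out 1 library each, *ND1* was called in the 2 without sixth-day *fog-2(lf)* replicate 3 or first-day wild type replicate 2, and *MTCE.25* in the 2 without sixth-day *fog-2(lf)* replicate 3 or first-day wild type replicate 3. Both genes were chosen after their values were seen.

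Germline lists differed in their share of calls. Germline markers (*glh-1*, *pgl-1* and *gld-1*, 3 of 3, none at 0) summed to 2059.6 to 2159 CPM in sixth-day *fog-2(lf)*, 1890.2 to 2235 in first-day *fog-2(lf)*, 1825 to 1940 CPM in sixth-day wild type and 1929 to 2866 CPM in first-day wild type. Of 35 oocyte and eggshell genes, 2 were positive (*perm-1* and *puf-5*) and 1 negative (*cav-1*), which under trimmed-mean scaling is below the background in both directions, and the median was 0.00. That median was -0.28 under library totals and -0.35 by limma on TPM. Under these scalings 0 members were positive, and 8 and 10 were negative. Over all 14560 genes 2781 and 3413 were negative there. None of 12 germline stem cell genes was called, and 1 of 40 DNA replication and cell cycle genes was, *orc-5*. For the replication list, 0 members were positive under either of the other scalings, with 11 negative under library totals and 10 under TPM. Under each of them 2 germline stem cell genes were negative. Meiosis genes had 5 positive calls among 39 (12.8%, median 0.19) and germ granule and small RNA genes 5 among 36 (13.9%, median 0.23). Both shares were above the 7.38% over all genes. The germ granule median was 0.12 without first-day wild type replicate 2. Neither list had a negative call, and both medians were below 0 under library totals and TPM. Under both of these scalings 0 members of either list were positive. Negative calls were 0 and 4 under library totals and 1 and 4 under TPM. *dsb-3*, which helps make meiotic double-strand breaks, had 32.7, 29.1 and 28.4 CPM in sixth-day *fog-2(lf)*, 20.7, 22.5 and 20.3 in first-day *fog-2(lf)*, 25.8, 26.5 and 25.9 in sixth-day wild type and 27.2, 26.5 and 25.8 in first-day wild type. Sixth-day *fog-2(lf)* was above every other library and first-day *fog-2(lf)* below every other library, with an interaction of 0.53 ± 0.13 (log2, SE; adjusted p = 0.0375). Meiosis calls became 1, 2 and 3 without sixth-day *fog-2(lf)* replicates 1, 2 and 3, 2 and 1 without first-day *fog-2(lf)* replicates 1 and 3 and 1, 1 and 3 without sixth-day wild type replicates 1, 2 and 3. Germ granule calls became 0, 0 and 2 without sixth-day *fog-2(lf)* replicates 1, 2 and 3, 1 and 0 without first-day *fog-2(lf)* replicates 1 and 3, 1, 0 and 2 without sixth-day wild type replicates 1, 2 and 3 and 3 without first-day wild type replicate 1.

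Major sperm protein genes, which carry the crawling motility of nematode sperm, had no call among 13 tested. Their median was 2.46, and it turned to -2.33 without first-day wild type replicate 2. Its sign came from that library. Their median age change was -2.24 in *fog-2(lf)* and -4.76 in wild type, and first-day wild type replicate 2 held most of that RNA. Histone genes had 2 positive and 12 negative calls among 65, with a median of 0.11 that was below 0 under library totals and TPM, -0.02 without first-day wild type replicate 1 and 0.32 without its replicate 2. *his-24*, a linker histone, was negative at -1.99 (adjusted p = 0.0771) with loss of the call without sixth-day *fog-2(lf)* replicate 1, 2 or 3, first-day *fog-2(lf)* replicate 1 or 3, sixth-day wild type replicate 1, 2 or 3 or first-day wild type replicate 1, and *hil-7*, another linker histone gene, at -2.47 (adjusted p = 0.0414) without such a loss. Several core histone genes have identical copies in the genome, so their counts are uncertain. The negative count was 6 without sixth-day *fog-2(lf)* replicate 1 and 7 without first-day *fog-2(lf)* replicate 3. The positive count was 7 without first-day wild type replicate 2 and 0 without its replicate 1.

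Muscle filament RNA fell further with age in *fog-2(lf)*. Of 38 genes of the contractile filaments and their attachments, 20 were negative and 0 positive, with a median of -0.81, and 35 fell in *fog-2(lf)* against 22 in wild type. The median age change was -1.92 in *fog-2(lf)* and -0.70 in wild type. *act-4*, a body-wall muscle actin on chromosome X, was chosen after its values were seen and had 284, 288 and 289 CPM in sixth-day *fog-2(lf)*, 1142, 961 and 1489 in first-day *fog-2(lf)*, 484, 594 and 536 in sixth-day wild type and 1121, 1209.9 and 1169 in first-day wild type. The first-day groups overlapped, and every sixth-day *fog-2(lf)* library was below every sixth-day wild-type library. Its interaction was -0.94 ± 0.19 (log2, SE; adjusted p = 0.0226), and the age change was -2.06 in *fog-2(lf)* (adjusted p = 1.2e-05) and -1.12 in wild type (adjusted p = 1.4e-04). *mup-2*, troponin T, likewise chosen after its values were seen, had the same shape, with an interaction of -1.24 (adjusted p = 0.0644) that was lost without sixth-day *fog-2(lf)* replicate 1 or 2, first-day *fog-2(lf)* replicate 1 or 3, sixth-day wild type replicate 2 or 3 or first-day wild type replicate 1.

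The largest muscle values were those of giant proteins. *unc-89*, the worm obscurin that ties filaments at the M-line, had 15.6, 14.7 and 19 CPM in sixth-day *fog-2(lf)*, 55.2, 57.8 and 116 in first-day *fog-2(lf)*, 28.7, 56.2 and 50.96 in sixth-day wild type and 8.27, 39.5 and 29.9 in first-day wild type. Sixth-day *fog-2(lf)* was below first-day *fog-2(lf)* and below sixth-day wild type in every library, and first-day wild type was uneven, with its replicate 1 lowest. The interaction was -3.02 ± 0.68 (log2, SE; adjusted p = 0.0290). *ketn-1*, the worm kettin, was similar, with 21.01, 19.5 and 23.4 CPM in sixth-day *fog-2(lf)*, 70.0, 80.1 and 171 in first-day *fog-2(lf)*, 31.02, 70.0 and 63.5 in sixth-day wild type and 6.22, 50.8 and 34.4 in first-day wild type. Its interaction was -3.18 ± 0.84 (log2, SE; adjusted p = 0.0446), lost without sixth-day *fog-2(lf)* replicate 1, first-day *fog-2(lf)* replicate 3 or sixth-day wild type replicate 2. *ttn-1*, a titin, was at -3.10 (adjusted p = 0.0508) and lost its call without sixth-day *fog-2(lf)* replicate 1 or 2, first-day *fog-2(lf)* replicate 3 or sixth-day wild type replicate 2 or 3. *unc-22*, twitchin, picked in the same way as *act-4*, at -2.83 (adjusted p = 0.0628), lost it without sixth-day *fog-2(lf)* replicate 1, 2 or 3, first-day *fog-2(lf)* replicate 3 or sixth-day wild type replicate 2 or 3. The body-wall myosin heavy chains *myo-3* and *unc-54*, both looked up after their values were seen, were at -1.36 (adjusted p = 0.0760) and -1.36 (adjusted p = 0.156), so that *unc-54* was not called, and *myo-3* lost its call without sixth-day *fog-2(lf)* replicate 1, 2 or 3, first-day *fog-2(lf)* replicate 1 or 3 or sixth-day wild type replicate 2 or 3.

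Body muscle markers (3 of 3, none at 0) summed to 192 to 225 CPM in sixth-day *fog-2(lf)*, 1149 to 2249 in first-day *fog-2(lf)*, 263 to 349 CPM in sixth-day wild type and 421 to 1340 CPM in first-day wild type, with the lowest value in its replicate 1. The muscle count became 7, 9 and 12 without sixth-day *fog-2(lf)* replicates 1, 2 and 3, 12 and 6 without first-day *fog-2(lf)* replicates 1 and 3, 6 and 9 without sixth-day wild type replicates 2 and 3 and 12 without first-day wild type replicate 1, and the median without first-day wild type replicate 1 was -0.73. Genes with long transcripts, muscle or not, leaned the same way: of 80 genes with an isoform over 8000 nt, 32 were negative (40%) and 0 positive, with a median of -1.004, or -0.72 without first-day wild type replicate 1. Among 1166 genes whose longest isoform was at most 500 nt the median was 0.11, and it was 0.01 without that library. The longest isoforms of *act-4* and *mup-2* were 1672 and 1604 nt. The part of transcript length in the muscle result was not tested.

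Some pharynx and basement membrane genes were negative, and none was positive. Of 17 pharynx genes tested (of 31 in the files), 6 were negative and 0 positive, all 17 lay below 0, and the median was -1.86, or -3.03 without first-day wild type replicate 2. *abu-14*, a glutamine- and asparagine-rich pharyngeal cuticle protein, had 0.357, 0.509 and 0.471 CPM in sixth-day *fog-2(lf)*, 0.161, 0.0800 and 0.196 in first-day *fog-2(lf)*, 5.53, 4.41 and 7.55 in sixth-day wild type and 0.144, 0.168 and 0.575 in first-day wild type. The sixth-day wild-type libraries were far above every other library, with an interaction of -2.78 (adjusted p = 0.0455) that was lost without sixth-day *fog-2(lf)* replicate 1 or first-day *fog-2(lf)* replicate 3. *myo-5* was at -1.65 (adjusted p = 0.0852), and its call held only in the fit without first-day wild type replicate 2. Pharynx markers (2 of 2, none at 0) summed to 3.39 to 4.67 CPM in sixth-day *fog-2(lf)*, 14.004 to 23.2 in first-day *fog-2(lf)*, 11.08 to 13.7 CPM in sixth-day wild type and 0.97 to 32.4 CPM in first-day wild type. The pharynx count was 3 without sixth-day *fog-2(lf)* replicate 1, 1 without first-day *fog-2(lf)* replicate 3, 3 without sixth-day wild type replicate 2 and 15 without first-day wild type replicate 2. Of 18 basement membrane genes, 4 were negative (median -0.76). *sdn-1*, syndecan, fell in *fog-2(lf)* and rose in wild type, with 36.2, 39.1 and 34.3 CPM in sixth-day *fog-2(lf)*, 43.1, 51.3 and 48.9 in first-day *fog-2(lf)*, 50.9, 47.1 and 45.1 in sixth-day wild type and 38.6, 31.8 and 34.9 in first-day wild type. Within each genotype the ages did not overlap, and the interaction was -0.83 ± 0.15 (log2, SE; adjusted p = 0.0170). *lam-1*, the laminin beta chain, was at -0.84 (adjusted p = 0.0505), lost without sixth-day *fog-2(lf)* replicate 1, first-day *fog-2(lf)* replicate 1 or 3 or sixth-day wild type replicate 2, and *him-4*, hemicentin, at -2.50 (adjusted p = 0.0702), lost without sixth-day *fog-2(lf)* replicate 1, 2 or 3, first-day *fog-2(lf)* replicate 1 or 3, sixth-day wild type replicate 1, 2 or 3 or first-day wild type replicate 3. The basement membrane count became 2 without sixth-day *fog-2(lf)* replicate 1, 2 and 2 without first-day *fog-2(lf)* replicates 1 and 3, 2 without sixth-day wild type replicate 2 and 8 without first-day wild type replicate 2.

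Many genes of the nervous system rose with age in wild type, and fewer did in *fog-2(lf)*. The clearest list was that of sensory cilia, the antennae of chemosensory neurons, of which 16 of 34 were negative and 0 positive, with a median of -1.59. In wild type 27 members rose, with a median of 1.68, and in *fog-2(lf)* 7 rose and 5 fell, with a median of -0.16. These are low genes. *dyf-2*, a subunit of the particle that moves cargo along cilia, had 2.68, 2.49 and 3.32 CPM in sixth-day *fog-2(lf)*, 2.22, 2.56 and 2.06 in first-day *fog-2(lf)*, 5.13, 5.35 and 5.50 in sixth-day wild type and 1.33, 1.95 and 1.84 in first-day wild type. The sixth-day wild-type libraries were above every other library and the other groups lay close together, with an interaction of -1.33 ± 0.30 (log2, SE; adjusted p = 0.0306). *ift-74* and *daf-10*, of the same transport particles, were chosen after their values were seen. *ift-74* had 0.285, 0.113 and 0.273 CPM in sixth-day *fog-2(lf)*, 0.322, 0.240 and 0.327 in first-day *fog-2(lf)*, 1.205, 0.934 and 0.825 in sixth-day wild type and 0.0719, 0.135 and 0.0575 in first-day wild type, with an interaction of -3.77 ± 0.63 (log2, SE; adjusted p = 0.0161), and *daf-10* was at -3.43 (adjusted p = 0.0226). Sixth-day wild type again stood above every other library, and at levels this low few reads stood behind each value. On the log2(TPM + 0.5) scale, which understates the change of low genes, the median of the list was -0.72 by limma, or -0.42 relative to all genes, with *ift-74* at -0.88 and *daf-10* at -0.71. With an offset of 0.1 these genes were at -2.23 and -1.87. The count of negative members was 9 and 10 without sixth-day *fog-2(lf)* replicates 1 and 2, 7 without first-day *fog-2(lf)* replicate 3 and 6 without sixth-day wild type replicate 2.

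Neuronal genes of synapses and excitability were negative in 10 of 36 and positive in 1 (*bas-1*), with a median of -0.69. *slo-1*, the calcium-activated potassium channel, had 2.14, 2.57 and 2.48 CPM in sixth-day *fog-2(lf)*, 2.19, 2.21 and 3.69 in first-day *fog-2(lf)*, 5.87, 7.76 and 6.45 in sixth-day wild type and 0.971, 1.99 and 1.90 in first-day wild type. Sixth-day wild type lay above all other libraries, and the interaction was -2.22 ± 0.43 (log2, SE; adjusted p = 0.0196), called without each library in turn. *unc-13*, which primes synaptic vesicles, had 5.17, 5.03 and 6.04 CPM in sixth-day *fog-2(lf)*, 9.14, 7.92 and 7.02 in first-day *fog-2(lf)*, 7.20, 13.98 and 10.8 in sixth-day wild type and 4.14, 6.30 and 6.56 in first-day wild type, with the sixth-day wild-type and first-day *fog-2(lf)* ranges overlapping. Its interaction was -1.48 ± 0.36 (log2, SE; adjusted p = 0.0353). *unc-2*, a presynaptic calcium channel, was at -1.38 (adjusted p = 0.05001), lost without sixth-day *fog-2(lf)* replicate 1, first-day *fog-2(lf)* replicate 3 or sixth-day wild type replicate 2. The 5 general neuron markers were even in their sum only, at 279 to 311 CPM in sixth-day *fog-2(lf)*, 272 to 280.5 in first-day *fog-2(lf)*, 313 to 336 CPM in sixth-day wild type and 246 to 323 CPM in first-day wild type. Most of that sum was *snb-1*, synaptobrevin. In wild type *egl-3*, *unc-31* and *rgef-1* were higher at the sixth day in every library, while the ages of *snb-1* and *ric-4* overlapped. *rgef-1*, for example, had 0.144 to 0.539 CPM in first-day wild type and 0.966 to 1.41 in sixth-day wild type. In *fog-2(lf)* the ages of *egl-3*, *ric-4*, *unc-31* and *rgef-1* all overlapped. The neuronal count was 2 and 5 without sixth-day *fog-2(lf)* replicates 1 and 2, 2 without first-day *fog-2(lf)* replicate 3 and 2 and 6 without sixth-day wild type replicates 2 and 3.

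Among FMRFamide-like peptide genes 6 of 30 were negative and 1 positive (median -0.67), and among neuropeptide-like protein genes 11 of 63 were negative and 0 positive (median -0.83). Their median age changes were 0.01 and 0.01 in *fog-2(lf)*, and 0.65 and 0.80 in wild type. *flp-25*, looked up after its values were seen, had 0.927, 0.678 and 0.818 CPM in sixth-day *fog-2(lf)*, 0.676, 0.640 and 0.947 in first-day *fog-2(lf)*, 2.66, 3.67 and 3.27 in sixth-day wild type and 0.252, 0.168 and 0.345 in first-day wild type. The sixth-day wild-type libraries were highest and first-day wild type lowest, with both *fog-2(lf)* ages between them and overlapping each other. The interaction was -3.58 ± 0.45 (log2, SE; adjusted p = 0.00756). *nlp-20* had 8.56, 5.93 and 5.004 CPM in sixth-day *fog-2(lf)*, 11.11, 7.09 and 9.44 in first-day *fog-2(lf)*, 7.94, 5.19 and 4.22 in sixth-day wild type and 1.91, 2.32 and 2.59 in first-day wild type, so that first-day wild type was the group apart, below all others. The interaction was -1.86 ± 0.41 (log2, SE; adjusted p = 0.0275), and *nlp-16* was at -1.97 (adjusted p = 0.0384). The positive call was *flp-6*, which had 44.2, 48.2 and 51.2 CPM in sixth-day *fog-2(lf)*, 11.5, 9.33 and 11.6 in first-day *fog-2(lf)*, 66.5, 55.8 and 53.7 in sixth-day wild type and 102.8, 17.3 and 82.9 in first-day wild type. It rose in *fog-2(lf)*, whereas in wild type the age change was -0.20 and did not pass the test, with a positive interaction of 2.35 (adjusted p = 0.0468) that was lost without sixth-day wild type replicate 2. The neuropeptide-like count was 6, 5 and 7 without sixth-day *fog-2(lf)* replicates 1, 2 and 3, 4 without first-day *fog-2(lf)* replicate 3, 6 and 5 without sixth-day wild type replicates 1 and 2 and 7 and 17 without first-day wild type replicates 1 and 2. Without first-day wild type replicate 2, FMRFamide-like genes had 5 positive and 7 negative calls, and neuropeptide-like genes 5 and 17.

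Of 23 insulin-like peptide genes tested (of 39 in the files), 4 were negative, *daf-28*, *ins-2*, *ins-30* and *ins-1*, all named after their values were seen, and 0 positive, with a median of -0.70. With age 9 members rose and 0 fell in *fog-2(lf)* (median 0.58), and 13 rose and 0 fell in wild type (median 1.71). *daf-28*, an agonist of the insulin receptor made in sensory neurons, was named after its values were seen and had 0.321, 0.226 and 0.124 CPM in sixth-day *fog-2(lf)*, 0.322, 0.107 and 0.653 in first-day *fog-2(lf)*, 1.14, 1.74 and 0.642 in sixth-day wild type and 0.0360, 0.168 and 0.173 in first-day wild type. The sixth-day groups did not overlap, all levels were below 2 CPM, and the interaction was -3.92 (adjusted p = 0.0412), lost without first-day *fog-2(lf)* replicate 3. The insulin-like count was 2 and 1 without sixth-day *fog-2(lf)* replicates 1 and 3, 1 and 0 without first-day *fog-2(lf)* replicates 1 and 3, 1, 1 and 2 without sixth-day wild type replicates 1, 2 and 3 and 1 without first-day wild type replicate 1. Ligand-gated ion channels, the receptors for fast transmitters, had 10 negative and 2 positive calls among 66 (median -0.42). *lgc-34* was at -1.32 (adjusted p = 0.0680), lost without sixth-day *fog-2(lf)* replicate 2 or 3, first-day *fog-2(lf)* replicate 1 or 3, sixth-day wild type replicate 2 or 3 or first-day wild type replicate 1. The channel count was 5 and 6 without sixth-day *fog-2(lf)* replicates 1 and 2, 5 and 6 without first-day *fog-2(lf)* replicates 1 and 3, 6 and 6 without sixth-day wild type replicates 1 and 2 and 5 and 17 without first-day wild type replicates 1 and 2.

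The egg-laying circuit, the vulval muscles, uterine cells and the neurons that drive them, had 6 negative and 0 positive calls among 19 (median -0.53). The negative count was 3 without sixth-day *fog-2(lf)* replicate 1 and 3 without sixth-day wild type replicate 2. *sem-4*, a zinc finger factor of the sex muscle and neuron lineages, had 5.46, 5.54 and 5.25 CPM in sixth-day *fog-2(lf)*, 4.09, 2.99 and 3.98 in first-day *fog-2(lf)*, 6.24, 10.7 and 7.37 in sixth-day wild type and 1.295, 2.06 and 1.09 in first-day wild type. First-day wild type was below every other library, and sixth-day wild type above, with an interaction of -1.87 ± 0.38 (log2, SE; adjusted p = 0.0227). *egl-19*, the muscle L-type calcium channel, and *ida-1*, a dense-core vesicle protein, fell in *fog-2(lf)* and rose in wild type, with interactions of -1.73 (adjusted p = 0.0519) and -1.27 (adjusted p = 0.0534). *egl-19* lost its call without sixth-day *fog-2(lf)* replicate 1 or 2, first-day *fog-2(lf)* replicate 3, sixth-day wild type replicate 2 or 3 or first-day wild type replicate 1, and *ida-1* without sixth-day *fog-2(lf)* replicate 1 or 2, first-day *fog-2(lf)* replicate 3 or sixth-day wild type replicate 2. The somatic gonad list had 2 negative calls among 17, the male soma list 2 among 8, and early zygotic genes 2 among 16, with no positive call in these lists. Sperm genes other than major sperm proteins had 1 negative call among 27.

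Epidermal and secreted matrix families were split. Hedgehog-related and patched-related genes, which in the worm serve cuticle and lipid handling in the epidermis, had 11 negative and 1 positive calls among 57 (median -0.96, or -0.45 by limma on TPM). *ptr-25*, patched-related, had 0.856, 0.961 and 1.04 CPM in sixth-day *fog-2(lf)*, 1.71, 1.17 and 1.70 in first-day *fog-2(lf)*, 4.85, 7.18 and 3.64 in sixth-day wild type and 0.899, 0.708 and 1.32 in first-day wild type. Sixth-day wild type was above every other library, with an interaction of -3.11 ± 0.46 (log2, SE; adjusted p = 0.0115). Of 120 cuticle collagens, 8 were negative (6.67%) and 4 positive (3.33%), both below the background, with a median of -0.16. Without first-day wild type replicate 2 the median was -0.74. The negative count became 4, 3 and 4 without sixth-day *fog-2(lf)* replicates 1, 2 and 3, 5 and 2 without first-day *fog-2(lf)* replicates 1 and 3, 5, 1 and 5 without sixth-day wild type replicates 1, 2 and 3 and 3 and 20 without first-day wild type replicates 1 and 2. For positive members it became 2 and 2 without sixth-day *fog-2(lf)* replicates 1 and 3. *col-135*, one of the positive members, had 0.892, 1.55 and 0.446 CPM in sixth-day *fog-2(lf)*, 10.8, 10.9 and 12.8 in first-day *fog-2(lf)*, 0.278, 0.483 and 0.581 in sixth-day wild type and 34.1, 72.1 and 41.8 in first-day wild type. First-day wild type stood above first-day *fog-2(lf)* without overlap, and the interaction was 3.19 ± 0.59 (log2, SE; adjusted p = 0.0180). Hypodermis markers (3 of 3) summed to 15.9 to 25.2 CPM in sixth-day *fog-2(lf)* and 552 to 1370.2 in first-day *fog-2(lf)*. Their sum was 8.62 to 13.5 CPM in sixth-day wild type and 302 to 1305 CPM in first-day wild type. Of these markers, *rol-6* was at 0 in first-day wild type replicates 1 and 2. Nearly all of the sum was *col-19*, an adult collagen, except in sixth-day wild type. There *col-19* had 5.376, 6.701 and 7.001 CPM, and *dpy-7*, another of these markers, 2.97, 5.38 and 2.02. In first-day wild type *dpy-7* had 0.216, 0.0674 and 0.23 CPM. Within wild type *dpy-7* was thus higher at the sixth day in every library, while *col-19* was lower. The negative Hedgehog-related count was 7 without sixth-day *fog-2(lf)* replicate 2, 6 and 5 without first-day *fog-2(lf)* replicates 1 and 3 and 4 without sixth-day wild type replicate 2. Without first-day wild type replicate 2 that list had 4 positive and 16 negative calls. *dlg-1*, the scaffold of epithelial junctions, was picked after its values were seen and had 36.9, 54.8 and 45.2 CPM in sixth-day *fog-2(lf)*, 39.1, 51.1 and 46.6 in first-day *fog-2(lf)*, 87.1, 113 and 102 in sixth-day wild type and 38.3, 37.3 and 46.7 in first-day wild type. Only sixth-day wild type stood apart, and the interaction was -1.30 ± 0.22 (log2, SE; adjusted p = 0.0161).

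Among regulators, F-box genes, adaptors that bring proteins to ubiquitin ligases and a large, fast-evolving family in worms, had 29 negative and 8 positive calls among 247 (median -0.62, or -0.34 without first-day wild type replicate 2). *fbxc-51* had 9.31, 18.2 and 16.4 CPM in sixth-day *fog-2(lf)*, 13.4, 8.16 and 12.02 in first-day *fog-2(lf)*, 29.6, 26.9 and 21.95 in sixth-day wild type and 4.53, 4.41 and 6.96 in first-day wild type. Sixth-day wild type was above and first-day wild type below every other library, with an interaction of -1.92 ± 0.40 (log2, SE; adjusted p = 0.0229). Nuclear hormone receptors had 13 negative (6.99%) and 4 positive calls among 186, both shares below the background, with a median of 0.06, or 0.11 without first-day wild type replicate 2. That median was -0.23 under library totals and -0.25 by limma on TPM. The negative count became 4, 7 and 7 without sixth-day *fog-2(lf)* replicates 1, 2 and 3, 6 and 4 without first-day *fog-2(lf)* replicates 1 and 3 and 3 and 6 without sixth-day wild type replicates 2 and 3. The positive count became 1 and 1 without sixth-day *fog-2(lf)* replicates 1 and 3, 2 and 0 without first-day *fog-2(lf)* replicates 2 and 3, 2, 1 and 2 without sixth-day wild type replicates 1, 2 and 3 and 17 without first-day wild type replicate 2. *daf-12*, the receptor for dafachronic acid steroids, was negative at -0.74 (adjusted p = 0.0637), lost without sixth-day *fog-2(lf)* replicate 1 or 2, first-day *fog-2(lf)* replicate 1 or 3, sixth-day wild type replicate 2 or 3 or first-day wild type replicate 1. Homeobox factors had 7 negative and 1 positive calls among 42 (median -0.26). *ceh-20*, a Pbx-type cofactor of Hox proteins, had 46.8, 49.6 and 48.7 CPM in sixth-day *fog-2(lf)*, 55.1, 47.5 and 45.3 in first-day *fog-2(lf)*, 33.5, 33.4 and 37.4 in sixth-day wild type and 21.8, 18.2 and 19.9 in first-day wild type. Both *fog-2(lf)* ages lay above both wild-type ages, and only wild type rose, so that the interaction was -0.83 ± 0.14 (log2, SE; adjusted p = 0.0165). F-box calls were 3 and 2 without sixth-day *fog-2(lf)* replicates 1 and 2, 2 without first-day *fog-2(lf)* replicate 3, 5 and 1 without sixth-day wild type replicates 1 and 2 and 4 and 23 without first-day wild type replicates 1 and 2 for positive members. For negative members the count became 13 without sixth-day *fog-2(lf)* replicate 1, 19 and 15 without first-day *fog-2(lf)* replicates 1 and 3, 16 and 16 without sixth-day wild type replicates 1 and 2 and 19 and 47 without first-day wild type replicates 1 and 3. Homeobox calls were 4 and 4 without sixth-day *fog-2(lf)* replicates 1 and 3, 3 without first-day *fog-2(lf)* replicate 3 and 4 without sixth-day wild type replicate 1.

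Negative interactions were more frequent on chromosome X. Of 2064 X-linked genes tested, 298 were negative (14.4%) and 5.43% positive, whereas on the 5 autosomes 6.14% to 7.85% were negative. The median interaction on X was -0.23, with a median age change of -0.39 in *fog-2(lf)* and -0.16 in wild type. Between genotypes, the median difference of *fog-2(lf)* against wild type was -0.26 at the sixth day and 0.02 at the first. Under library totals the X median was -0.52, or -0.26 relative to the all-gene median of -0.26. Among genes with at least 10 CPM in 1 group, 143 of 922 X-linked genes were negative (15.5%), against 3.21% to 4.20% on the autosomes. Leaving out 1 library moved the X count between 141, without first-day *fog-2(lf)* replicate 3, and 348, without first-day wild type replicate 2, which is 6.83% and 16.9%. In *C. elegans* the X chromosome is largely silent in the germline and enriched for somatically expressed genes. Neighbouring and co-expressed genes are not independent, so the shares are descriptions and no test was made. *vit-1* to *vit-5* also lie on X and were positive.

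**Figure D5:**
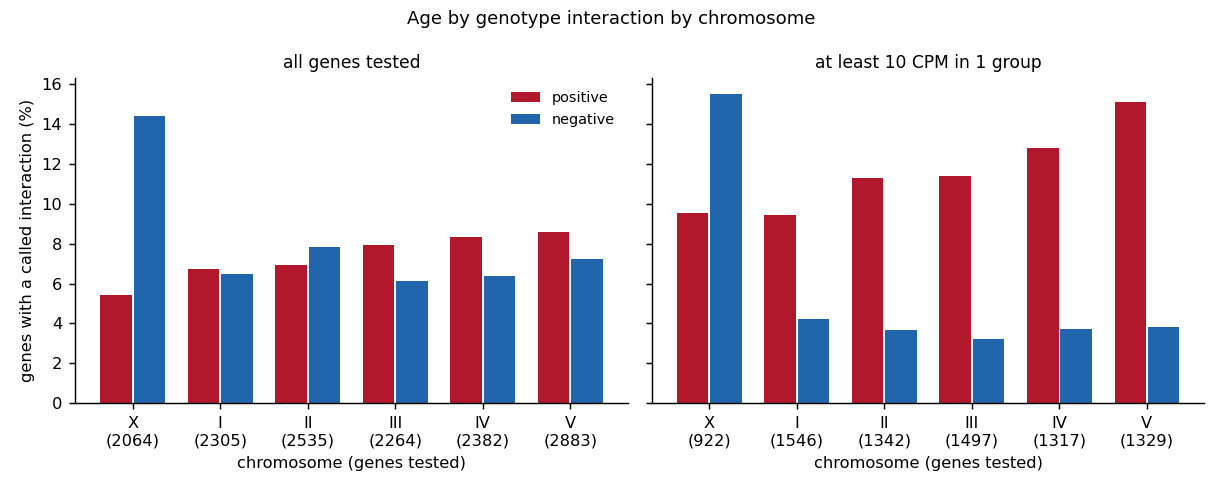
Percent of tested genes with a positive (red) or negative (blue) interaction on chromosome X and on each autosome, for all genes tested (left) and for genes with at least 10 CPM in 1 group (right); numbers in brackets are genes tested. On X 14.4% of all genes and 15.5% of the higher ones were negative, above each autosome in both panels.

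The largest single values of genes at 10 CPM or more in 1 group came partly from uneven groups. On the positive side, *lipl-1*, a lysosomal lipase induced by fasting, had 18.9, 26.2 and 8.94 CPM in sixth-day *fog-2(lf)*, 2.41, 4.85 and 4.90 in first-day *fog-2(lf)*, 1.51, 7.73 and 1.22 in sixth-day wild type and 30.2, 5.83 and 113 in first-day wild type. In *fog-2(lf)* sixth-day values were all above first-day values, and in wild type the first-day values spread widely. The interaction was 5.98 ± 1.36 (log2, SE; adjusted p = 0.0303). *asah-1*, an acid ceramidase, had 42.4, 23.8 and 12.7 CPM in sixth-day *fog-2(lf)*, 30.2, 34.2 and 41.8 in first-day *fog-2(lf)*, 8.002, 12.9 and 3.03 in sixth-day wild type and 127, 69.9 and 284 in first-day wild type, and *asm-3*, an acid sphingomyelinase, had 35.8, 20.7 and 7.95 CPM in sixth-day *fog-2(lf)*, 13.3, 23.9 and 34.6 in first-day *fog-2(lf)*, 3.86, 7.99 and 0.917 in sixth-day wild type and 67.3, 38.4 and 151 in first-day wild type. For both genes first-day wild type was above sixth-day wild type in every library, while the *fog-2(lf)* ages overlapped. Their interactions were 3.90 (adjusted p = 0.0256) and 4.17 (adjusted p = 0.0385), and these 3 lysosomal enzymes were called without each library in turn.

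The other large positive values differed in how far they rested on 1 library. *Y39E4B.6* was at 1778, 14.98 and 11.4 CPM in sixth-day *fog-2(lf)* and between 10.5 and 28.3 CPM in the other groups, so that 1 library made its value of 5.91 (adjusted p = 0.0890), and the call was lost without sixth-day *fog-2(lf)* replicate 1, first-day *fog-2(lf)* replicate 1, 2 or 3, sixth-day wild type replicate 1, 2 or 3 or first-day wild type replicate 1 or 3. *adh-1*, an alcohol dehydrogenase, had 136, 64.7 and 1348 CPM in first-day wild type, and its value of 4.10 (adjusted p = 0.0747) was lost without sixth-day *fog-2(lf)* replicate 1, 2 or 3, first-day *fog-2(lf)* replicate 1, 2 or 3, sixth-day wild type replicate 1 or 3 or first-day wild type replicate 3. *fmo-2* was at 4.55 (adjusted p = 0.0869) and was called only in the fit without first-day wild type replicate 2. *acox-1.3*, a peroxisomal acyl-CoA oxidase, was at 4.21 (adjusted p = 0.0472), lost without sixth-day *fog-2(lf)* replicate 1 or 2, and *cest-1.1*, a carboxylesterase, at 4.40 (adjusted p = 0.0685), lost without sixth-day *fog-2(lf)* replicate 1 or 2, first-day *fog-2(lf)* replicate 1 or 3, sixth-day wild type replicate 1, 2 or 3 or first-day wild type replicate 3. Of the genes with no role given here, *C27A7.8* was at 5.20 (adjusted p = 0.0314) and *F42A10.7* at 3.98 (adjusted p = 0.0371), both called without each library in turn, and *T09E11.11* at 3.90 (adjusted p = 0.0923), lost without sixth-day *fog-2(lf)* replicate 1 or 2, first-day *fog-2(lf)* replicate 1, 2 or 3, sixth-day wild type replicate 1, 2 or 3 or first-day wild type replicate 1 or 3.

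On the negative side the leading genes were more even. *C09F9.2* (chromosome II, 14705515 to 14713240) had 6.88, 16.02 and 10.2 CPM in sixth-day *fog-2(lf)*, 4.96, 2.72 and 4.83 in first-day *fog-2(lf)*, 23.6, 37.6 and 20.1 in sixth-day wild type and 0.719, 0.573 and 1.44 in first-day wild type. It rose in both genotypes, and sixth-day wild type was above sixth-day *fog-2(lf)* in every library, with an interaction of -3.54 ± 0.58 (log2, SE; adjusted p = 0.0144). *clec-266*, a C-type lectin on X, had 42.6, 86.6 and 55.8 CPM in sixth-day *fog-2(lf)*, 93.6, 37.8 and 109.6 in first-day *fog-2(lf)*, 147, 130.1 and 79.1 in sixth-day wild type and 12.4, 6.84 and 29.1 in first-day wild type. First-day wild type was below every other library, and the interaction was -3.28 ± 0.73 (log2, SE; adjusted p = 0.0280). *zip-8*, a bZIP factor, had 7.10, 8.87 and 6.74 CPM in sixth-day *fog-2(lf)*, 16.5, 2.91 and 11.5 in first-day *fog-2(lf)*, 15.4, 10.99 and 10.7 in sixth-day wild type and 1.26, 0.809 and 2.65 in first-day wild type. First-day wild type was again lowest, and the interaction was -3.46 ± 0.77 (log2, SE; adjusted p = 0.0280). Called without each library in turn were also *C15H9.11* at -3.22, *Y110A2AL.4* at -3.10 and *R03H10.6* at -3.09, all of which rose in wild type while the age change in *fog-2(lf)* did not pass the test. *C08F1.10*, at -3.34 (adjusted p = 0.0436), lost its call without sixth-day *fog-2(lf)* replicate 1. *rnh-1.3*, a ribonuclease H, was at -4.03 (adjusted p = 0.0374) with 93.3, 14.9 and 7.22 in first-day *fog-2(lf)*, so that 1 library held most of that group's level. *Y75B12B.8* was called negative with 0.642, 3.11 and 8.60 CPM in sixth-day *fog-2(lf)*, 0.644, 0.586 and 0.849 in first-day *fog-2(lf)*, 14.5, 10.1 and 6.18 in sixth-day wild type and 0.0360, 0 and 0 in first-day wild type, and since first-day wild type was at or near 0 and the gene shares its counts with an identical copy, no fold change is given.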

How the data were processed

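Whole-worm poly(A) RNA from 12 libraries was analysed. According to the deposited files and the study's methods, the authors pseudoaligned single-end reads with kallisto against the WBcel235 transcriptome and compared groups with sleuth, with versions not given in the sources used here. The deposited estimated counts are reads that the authors' kallisto runs assigned to isoforms without scaling, and the deposited TPM values are the same counts per unit of effective length, with a fixed sum in every library. Single-end kallisto uses a preset fragment length, which affects the effective length and thus the TPM of short isoforms most.

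Estimated counts of 32905 isoforms were summed per gene and rounded, which gave 22035 genes. The 307 isoforms that matched no annotated gene were kept under their sequence names, which count among the 22035. Genes were filtered with filterByExpr (14560 kept), scaled by the trimmed mean of M-values and fitted in edgeR 4.0.16 (R 4.3.3) with age, genotype and age:genotype over all libraries, and the interaction was tested by the quasi-likelihood F test with Benjamini-Hochberg adjustment. Library totals ran from 21162593 to 38775999, and the biological coefficient of variation was 0.24, which sets the precision more than depth does except for genes near 1 CPM. CPM are scaled by the same factors. Counting is stated nowhere to use strand, so overlapping antisense genes are not told apart. The fit was tested on simulated data: of 14560 genes with 100 changed 2-fold and 100 changed 4-fold in the interaction, 21 and 57 were recovered with 8 false calls.

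Genes were grouped into 54 lists by name and known function. The members and lists were chosen with earlier results of these data known, and so were the tests. Named genes were the 12 most positive and 12 most negative interactions of the called genes averaging 10 CPM or more in 1 group, up to 3 called members in each direction of every list with at least 5 CPM in 1 group, *fog-2* and its paralog *ftr-1*, and the cell type markers; genes outside this rule, those that make up a small count included, were chosen after their values were seen. Alternatives were DESeq2 1.42.0, relative log expression factors, library totals, 2 other filters, limma 3.58.1 on log2(TPM + 0.5), with 0.1 and 1 in place of 0.5, a threshold of 0.05, isoforms in place of genes, a replicate block and leaving out each library. Promoter sequence was not used here. The deposited count files carried no comparisons by the authors, and the gene lists in the study's supplement were not set beside these calls. Replicates of a group differed by more than sampling noise. The study's methods call the replicates biological, and the labels say no more of their origin, so p-values measure the spread between these samples.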

Additional observations from a re-analysis of the deposited data

Results flagged for a closer look

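The age change differed between *fog-2(lf)* and wild type for 2233 genes, by the test of the interaction itself (edgeR's quasi-likelihood test). Among the named genes, 11 changed with age in opposite directions in the 2 genotypes, with both age changes and the interaction past an adjusted p of 0.1. Those that moved upward in *fog-2(lf)* and downward in wild type were the following, each with its log2 age changes. The secreted metalloprotease gene was one of them, *nas-20* by 1.28 in *fog-2(lf)* and -1.47 in wild type (interaction 2.75). Both early steps of polyunsaturated fatty acid synthesis were among them, *fat-2* by 1.03 in *fog-2(lf)* and -0.97 in wild type (interaction 2.0), and *fat-3* by 1.05 in *fog-2(lf)* and -1.34 in wild type (interaction 2.38). In the translation machinery *rpl-10* by 0.23 in *fog-2(lf)* and -0.68 in wild type (interaction 0.91) and *eif-3.H* by 0.28 in *fog-2(lf)* and -0.34 in wild type (interaction 0.62) did so, as did the J-domain chaperone gene, *dnj-1* by 0.39 in *fog-2(lf)* and -0.14 in wild type (interaction 0.53). *C27A7.8* changed by 2.37 in *fog-2(lf)* and -2.83 in wild type, with an interaction of 5.2.

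Those that moved downward in *fog-2(lf)* and upward in wild type were a homeobox gene of the anterior epidermis and head neurons, *ceh-43* by -1.39 in *fog-2(lf)* and 1.13 in wild type (interaction -2.52), the L-type calcium channel gene, *egl-19* by -0.89 in *fog-2(lf)* and 0.84 in wild type (interaction -1.73), the dense-core vesicle gene, *ida-1* by -0.64 in *fog-2(lf)* and 0.63 in wild type (interaction -1.27), and syndecan, *sdn-1* by -0.39 in *fog-2(lf)* and 0.44 in wild type (interaction -0.828). *dnj-1*, at 0.528, *eif-3.H*, at 0.617, and *rpl-10*, at 0.915, had the smallest errors of the upward set, and all 3 values were below 1 on the log2 scale.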

How the results depend on the processing

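The count of 2233 genes was 2913 by DESeq2, 2286 with relative log expression factors, 3193 with library totals and 1982 without a filter on low counts. It was 1043 with at least 10 CPM in 3 libraries (541 positive, 502 negative), 1080 at an adjusted p under 0.05 (500 and 580) and 855 for genes with a called isoform (417 and 444, with some genes counted in both directions); the first tests fewer genes and the second is stricter by construction. Library totals gave 412 positive and 2781 negative genes. limma on log2(TPM + 0.5), log2(TPM + 0.1) and log2(TPM + 1) gave 3791, 3627 and 3811 genes, of which 378, 354 and 380 were positive and 3413, 3273 and 3431 negative. The cause of the limma counts was not tested. Of the 2233 genes, 98% were called in the same direction by DESeq2, 70.3% with library totals, 67% by limma with an offset of 0.5 and 31.7% for isoforms. Leaving out each library in turn gave 1027 to 3321 genes, 470 to 1779 positive and 552 to 1542 negative, and 44.6% to 93.1% of the 2233 genes were called again in the same direction.

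The named genes that turned negative by limma on TPM with offsets of 0.5, 0.1 and 1 were *puf-5* (-0.023162, -0.023207 and -0.023107), *rpn-5* (-0.06702, -0.067212 and -0.066781) and *rpn-13* (-0.012641, -0.012695 and -0.012575), all without passing the test. No other named gene that was called changed sign under any alternative run. Of the 178 called named genes, the call was lost for 1 by DESeq2, 46 with library totals, 55 by limma with an offset of 0.5 and 9 to 85 when 1 library was left out.

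Replicate numbers did not pair the libraries: deviations from group means correlated over 0.1 for 4 of 18 same-number pairs (-0.14 to 0.16) and 6 of 36 others, and not every library correlated best with its own number. With the replicate block 2190 genes were called (1072 positive, 1118 negative), 87.4% of the 2233 in the same direction. With 3 replicates a group, and levels near 1 CPM for many negative genes, a change that was not called is not shown to be absent.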

Other observations

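Enzymes of central carbon metabolism had calls in both directions. Among 41 genes of glycolysis, the TCA cycle and the glyoxylate cycle, 5 had a positive interaction and 3 a negative one, with a median of 0.15 that was below 0 under library totals and TPM, and 0.10 without first-day wild type replicate 2. Under library totals 0 were positive and 8 negative, and under TPM 0 and 10. The 2 fructose-bisphosphate aldolase genes went in opposite directions. *aldo-1* had 21.7, 20.5 and 24.5 CPM in sixth-day *fog-2(lf)*, 75.3, 65.9 and 94.3 in first-day *fog-2(lf)*, 38.9, 45.5 and 47.6 in sixth-day wild type and 58.6, 66.9 and 52.4 in first-day wild type. Sixth-day *fog-2(lf)* was below every other library, and the interaction was -1.39 ± 0.20 (log2, SE; adjusted p = 0.0110) (edgeR's quasi-likelihood test), called without each library in turn. *aldo-2* had 674, 624 and 589 CPM in sixth-day *fog-2(lf)*, 1036, 1013 and 1085 in first-day *fog-2(lf)*, 545, 492 and 419 in sixth-day wild type and 1166, 955 and 1272 in first-day wild type. Here sixth-day *fog-2(lf)* was above sixth-day wild type in every library, and the interaction was 0.49 ± 0.17 (log2, SE; adjusted p = 0.0944), lost without sixth-day *fog-2(lf)* replicate 1, 2 or 3, first-day *fog-2(lf)* replicate 1, 2 or 3, sixth-day wild type replicate 2 or 3 or first-day wild type replicate 1 or 3. *pfk-1.1*, a phosphofructokinase gene, was negative at -0.58 (adjusted p = 0.0421), lost without first-day *fog-2(lf)* replicate 3. *pyk-2*, a pyruvate kinase gene, was positive at 0.76 (adjusted p = 0.0420), lost without sixth-day *fog-2(lf)* replicate 1, and *cts-1*, citrate synthase, positive at 0.52 (adjusted p = 0.0480) without such a loss. The positive count was 1 and 3 without sixth-day *fog-2(lf)* replicates 1 and 2, 3 and 2 without first-day *fog-2(lf)* replicates 2 and 3 and 2 and 3 without sixth-day wild type replicates 2 and 3, and the negative count 1 without first-day *fog-2(lf)* replicate 3.

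Most lists of protein quality control and stress genes had few calls under trimmed-mean scaling. Proteasome genes had 2 positive and 0 negative of 33, autophagy genes 0 positive and 1 negative of 26, heat shock and other chaperone genes 3 positive and 0 negative of 26, redox genes 1 positive and 0 negative of 26 and glutathione S-transferases 2 positive and 1 negative of 40, against 7.38% positive and 7.96% negative over all genes. The chaperone share of positive calls, 11.5%, was above that over all genes, and the other shares were below. Under library totals 2 proteasome and 8 autophagy genes were negative, and under TPM 10 and 9, with 0 positive in either list. Chaperone genes had 1 positive and 4 negative calls under library totals and 0 and 4 under TPM. The members called in the main fit were *rpn-5* and *rpn-13* of the proteasome, *atg-4.2* of autophagy, *hsp-43*, *dnj-1* and *hsp-4* of the chaperones and *trx-2* of the redox genes. *hsp-4*, the endoplasmic reticulum chaperone BiP, had 414, 419 and 377 CPM in sixth-day *fog-2(lf)*, 413, 374 and 403 in first-day *fog-2(lf)*, 353, 384 and 399.6 in sixth-day wild type and 583, 490.5 and 529.5 in first-day wild type. First-day wild type was above every other library, and the interaction was 0.52 ± 0.12 (log2, SE; adjusted p = 0.0311). *ftr-1*, the close paralog of *fog-2*, had 44.5, 41.2 and 45.98 CPM in sixth-day *fog-2(lf)*, 25.8, 26.1 and 25.1 in first-day *fog-2(lf)*, 37.2, 36.8 and 36.9 in sixth-day wild type and 34.1, 30.5 and 32.2 in first-day wild type, with first-day *fog-2(lf)* below every other library and an interaction of 0.58 ± 0.12 (log2, SE; adjusted p = 0.0226).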
